A study of Mus musculus with 6 samples.

Results

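The 9 genes described here encode the myogenic regulatory factors (Myod1, Myog, Myf5 and Myf6), a fusion protein of the muscle cell surface (Tmem8c), a muscle cadherin (Cdh15) and the Id proteins (Id1, Id2 and Id3). They were taken by symbol from the authors' deposited table of 25927 rows, of which 13347 had been tested by the authors, and each of the 9 had 1 row, all of them tested. Gastrocnemius, a calf muscle, was compared between 3 libraries of MLL4SET-MKO mice and 3 libraries of WT mice, all C57BL/6J and 8 weeks old. In MLL4SET-MKO mice the SET part of MLL4, a histone H3 lysine 4 methyltransferase whose gene is Kmt2d, had been knocked out in muscle, and WT mice served as their controls. The sources used here give neither the promoter that drives the deletion nor the cells it reaches.

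Myogenic regulatory factors are basic helix-loop-helix proteins that bind E-boxes in DNA together with E proteins and switch on muscle genes. Myf5 and MyoD act in muscle stem cells and myoblasts, myogenin drives their differentiation, and Myf6 (MRF4) is the factor that prevails in adult fibres. Id proteins have the helix-loop-helix but no basic region, so they hold E proteins off DNA, and their genes are classic targets of bone morphogenetic protein (BMP) signalling. Tmem8c encodes myomaker, which with myomixer fuses myoblasts to one another and to fibres, and Cdh15 encodes M-cadherin, an adhesion protein of muscle stem cells and myoblasts.

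All levels are the authors' FPKM (fragments relative to transcript length and library size), 1 value per group of 3 libraries, so no spread between mice can be shown. Genes with a q under 0.05 in the authors' deposited table are referred to as called. Ratios are log2(MLL4SET-MKO FPKM / WT FPKM), and their 95% intervals were worked back from the authors' test statistic and p-value. The targeted gene Kmt2d had 5.65 FPKM in MLL4SET-MKO and 8.77 FPKM in WT (q = 0.000903 in the authors' deposited table). This level is for the gene as a whole, so it does not measure the loss of the SET part. Of 12 skeletal muscle fibre markers, 10 were measured, with a summed level of 57534 FPKM in MLL4SET-MKO and 59971 FPKM in WT, and Acta1 and Ckm are listed at 0 in both groups because Cuffdiff skipped these loci (status HIDATA), so they have no level here. Mylpf, a fast myosin light chain gene, was the marker called, with 6959 FPKM in MLL4SET-MKO and 10773 FPKM in WT.

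Of the 9 genes, 3 were called. Myog and Myf5 were lower in MLL4SET-MKO and Tmem8c was higher, while Myod1, Myf6, Cdh15, Id1, Id2 and Id3 did not pass the threshold. Over all tested rows the share of calls was 11.8%, made up of 4.44% higher and 7.41% lower in MLL4SET-MKO. At a q threshold of 0.01, which left Myog alone among the 9, the share was 7.85%. Along with Id2, the called genes were the lowest of the 9 by mean FPKM. Among tested rows with a mean of 2 to 5, 1 to 2 and 0 to 1 FPKM, the ranges in which Myog, Myf5 and Tmem8c lie, 10.3%, 9.30% and 11.2% were called.

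**Figure D1:**
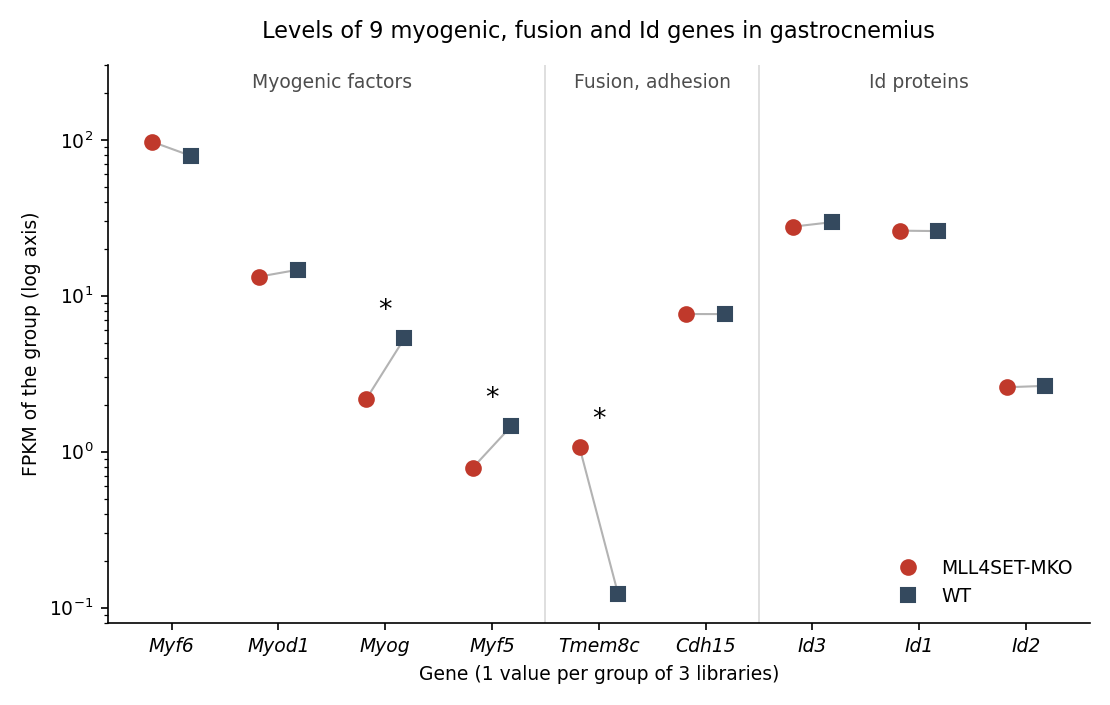
FPKM of each gene (log axis) in MLL4SET-MKO (circles, left) and WT (squares, right), 1 value per group of 3 libraries, with an asterisk over the genes called at q under 0.05. Myog and Myf5 lie lower and Tmem8c higher in MLL4SET-MKO, and the lines of the other genes are nearly level.

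Myog, the gene of myogenin, had 2.16 FPKM in MLL4SET-MKO and 5.34 FPKM in WT. The MLL4SET-MKO level was thus 40.5% of that in WT, a log2 ratio of -1.30 (95% interval -1.73 to -0.87, q = 0.000903 in the authors' deposited table). Only 229 of the 13347 tested rows had a lower ratio. Its q is the smallest that the authors' deposited table holds. Myog was also the one gene of the 9 that still passed when the authors' statistic was taken directly as a normal deviate (q = 0.025). On this reading 3.11% of all tested rows passed. The reading is stricter than the authors' own p-values, whose normal deviates were 1.73 times the statistic at the median. Myog lies on chromosome 1, from 134290004 to 134292548 on the plus strand (mm10), and GENCODE M21 gives it 3 exons.

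Myf5, which marks quiescent and activated muscle stem cells, had 0.789 FPKM in MLL4SET-MKO and 1.46 FPKM in WT. The MLL4SET-MKO level was 54.1% of that in WT, a log2 ratio of -0.89 (95% interval -1.46 to -0.31, q = 0.024 in the authors' deposited table). At this low level the call was less secure than that of Myog, and it was lost on that reading (q = 0.69). In a whole-muscle sample, fewer cells of a type and less RNA per cell cannot be told apart.

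Myf6 had by far the most transcript of the 4 factors, with 96.9 FPKM in MLL4SET-MKO and 78.9 FPKM in WT. This gave a log2 ratio of 0.30 (95% interval 0.05 to 0.54). Its unadjusted p was 0.018, and over all tested rows it did not pass (q = 0.11 in the authors' deposited table). Myf6 lies 6725 bases from Myf5 on chromosome 10, at 107492860 to 107494729, against 107482908 to 107486134 for Myf5, both on the minus strand. These neighbouring genes had ratios of opposite sign, with 95% intervals, as worked back here, that do not overlap. Neither gene passed with the authors' statistic taken directly as a normal deviate, and the difference between their ratios was not tested.

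Myod1 had 13.3 FPKM in MLL4SET-MKO and 14.7 FPKM in WT. This gave a log2 ratio of -0.15 (95% interval -0.52 to 0.23, q = 0.75 in the authors' deposited table), so the data leave room for a level in MLL4SET-MKO between 69.8% and 117% of that in WT. The authors' locus for Myod1 (chromosome 7, 46371367 to 46379095) begins 5107 bases before the gene in GENCODE M21, which starts at 46376474, and no other annotated gene overlaps it.

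Summed over the 4 factors, the level was 113.1 FPKM in MLL4SET-MKO and 100.3 FPKM in WT. Myf6 made up 85.7% of this sum in MLL4SET-MKO and 78.6% in WT. Myod1 made up 11.7% in MLL4SET-MKO and 14.6% in WT, Myog 1.91% and 5.32%, and Myf5 0.698% and 1.45%, in the same order. The ratio of the Myf6 level to the Myog level was 44.8 in MLL4SET-MKO and 14.8 in WT. The order of the factors by level, Myf6, Myod1, Myog and Myf5, was the same in both groups. Neighbours in that order could not be tested against each other, as no values of single libraries were used.

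The stretch before the start of Myog and of Myf5 is shown because these factor genes were called, with that of Cdh15, a gene whose level hardly differed, beside them. The RefSeq promoter table (GRCm38.p6) was searched by the 9 symbols, with Tmem8c but not its GENCODE name Mymk. A window of 250 bases before to 50 bases after the start was found for 5 of the 9 genes (Myog, Myf5, Cdh15, Id2 and Id3). The windows read 5′ to 3′ on the strand of the gene, and capitals mark E-boxes (CANNTG), searched on both strands as the other motifs were. Myog is at chr1:134289754-134290053 (plus strand), Myf5 at chr10:107486085-107486384 (minus strand) and Cdh15 at chr8:122848124-122848423 (plus strand).
Myog: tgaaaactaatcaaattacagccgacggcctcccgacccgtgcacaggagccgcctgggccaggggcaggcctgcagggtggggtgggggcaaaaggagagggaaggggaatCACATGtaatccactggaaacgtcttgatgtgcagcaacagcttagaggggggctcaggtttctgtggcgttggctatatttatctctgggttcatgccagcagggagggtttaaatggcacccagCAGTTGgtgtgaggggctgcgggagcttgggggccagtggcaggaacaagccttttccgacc
Myf5: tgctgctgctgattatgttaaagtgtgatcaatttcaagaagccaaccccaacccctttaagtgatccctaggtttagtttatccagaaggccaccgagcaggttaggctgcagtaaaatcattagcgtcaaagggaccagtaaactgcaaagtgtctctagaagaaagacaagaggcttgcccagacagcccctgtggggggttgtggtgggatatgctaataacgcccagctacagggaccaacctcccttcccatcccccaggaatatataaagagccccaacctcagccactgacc
Cdh15: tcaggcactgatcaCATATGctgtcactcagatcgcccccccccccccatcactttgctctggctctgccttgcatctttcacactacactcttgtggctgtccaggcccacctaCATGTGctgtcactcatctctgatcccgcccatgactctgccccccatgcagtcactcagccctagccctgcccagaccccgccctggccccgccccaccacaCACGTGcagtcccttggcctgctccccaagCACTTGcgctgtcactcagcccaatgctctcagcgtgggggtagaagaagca

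The Myog window holds 2 E-boxes, CACATG beginning 138 bases before the start and CAGTTG beginning 12 bases before it. An E-box is found in 72.3% of all 32851 windows of that table. The Myf5 window holds no E-box, as is so for 27.7% of all windows. The Cdh15 window holds 4 E-boxes, and 6.49% of all windows hold 4 or more. Of Id2 and Id3, the Id2 window holds 1 E-box, CAGCTG, a form present in 16.3% of all windows, and also GGCGCC, a motif bound by BMP-activated SMAD proteins and present in 11.9%. The Id3 window holds no E-box but has CATTCC, the core of the MCAT motif of TEAD proteins, present in 14.7%. The other motifs searched, CAGGTG (20.2% of all windows) and the MEF2 consensus by strict match (3.19%), had no match in these 5 windows. The MEF3 motif was not searched, and no looser match to the MEF2 consensus was tried. The search therefore does not show that the Myog window holds E-boxes alone. A match is a stretch of letters and not evidence of binding.

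Tmem8c, the gene of the fusion protein myomaker (Mymk in GENCODE M21), had 1.07 FPKM in MLL4SET-MKO and 0.123 FPKM in WT. The level in MLL4SET-MKO was 8.66 times that in WT, a log2 ratio of 3.12 (95% interval 1.24 to 4.99, q = 0.013 in the authors' deposited table). The interval corresponds to a fold between 2.37 and 31.7, so the size is poorly known. Only 42 of the 13347 tested rows had a higher ratio, and rows with a mean under 1 FPKM are the noisiest, with a median standard error of 0.36 on the log2 scale against 0.15 from 5 to 20 FPKM. The call was lost when the statistic was taken directly as a normal deviate (q = 0.34). Tmem8c lies on chromosome 2, at 27061636 to 27072161 on the minus strand, and has 5 exons in GENCODE M21.

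Gm7325, the gene of myomixer and thus the partner of myomaker in fusion, had 0.959 FPKM in MLL4SET-MKO and 0.124 FPKM in WT, and is named here after its values were seen. The log2 ratio was 2.95 (95% interval 0.62 to 5.27). It did not pass over all tested rows (q = 0.080 in the authors' deposited table, p = 0.011 before adjustment). Both genes of the fusion machinery were thus near 0.12 FPKM in WT and near 1 FPKM in MLL4SET-MKO, of which the difference in Tmem8c alone was called.

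Cdh15 had 7.63 FPKM in MLL4SET-MKO and 7.63 FPKM in WT. This gave a log2 ratio of 0.00 (95% interval -0.28 to 0.28, q = 0.997 in the authors' deposited table), an interval that spans differences from -17.6% to 21.6%. Cdh15 lies on chromosome 8, at 122848374 to 122867397 on the plus strand, inside the span of Gm20388, a long predicted gene of the same strand in GENCODE M21.

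**Figure D2:**
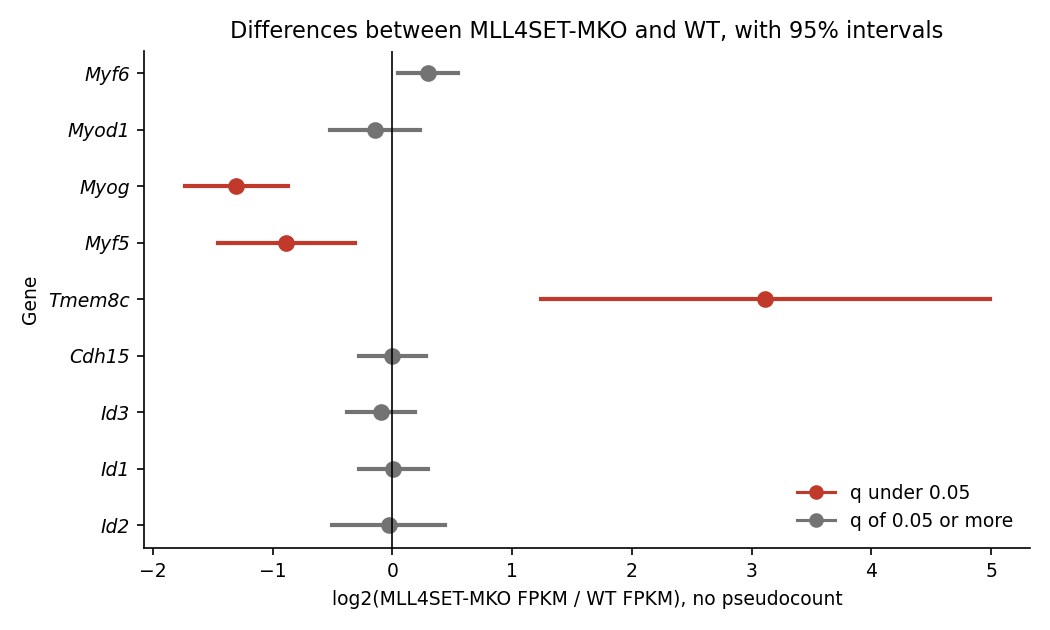
log2 ratio of MLL4SET-MKO to WT for each gene (points) with the 95% interval worked back from the authors' test (bars), coloured where q was under 0.05. The bars of Myog and Myf5 lie wholly below 0 and that of Tmem8c wholly above it, from 1.24 to 4.99, while the bars of Myod1, Cdh15 and the Id genes cross 0 and that of Myf6, not called, runs from 0.05 to 0.54.

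Among the Id genes, none was called, and Id2 had far less transcript than Id1 and Id3. The Id1 level was 10.1 times that of Id2 in MLL4SET-MKO and 9.82 times in WT, and the Id3 level 10.7 times and 11.2 times in the same order. Id1 had 26.1 FPKM in MLL4SET-MKO and 26.0 FPKM in WT. Its log2 ratio was 0.01 (95% interval -0.28 to 0.29, q = 0.98 in the authors' deposited table). Id1 lies on chromosome 2, at 152736251 to 152737410 on the plus strand.

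Id3 had 27.7 FPKM in MLL4SET-MKO and 29.6 FPKM in WT, with a log2 ratio of -0.09 (95% interval -0.38 to 0.19, q = 0.80 in the authors' deposited table). Id2 had 2.59 FPKM in MLL4SET-MKO and 2.64 FPKM in WT, with a log2 ratio of -0.03 (95% interval -0.50 to 0.44, q = 0.97 in the authors' deposited table). The interval of Id2 is wide enough to hold a level in MLL4SET-MKO between 70.6% and 136% of that in WT. Summed over the 3 genes the level was 56.5 FPKM in MLL4SET-MKO and 58.2 FPKM in WT, and Id3 made up 49.1% of it in MLL4SET-MKO and 50.9% in WT. Id3 lies on chromosome 4 (136143822 to 136145392, plus strand) and Id2 on chromosome 12 (25093799 to 25096092, minus strand).

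**Figure D3:**
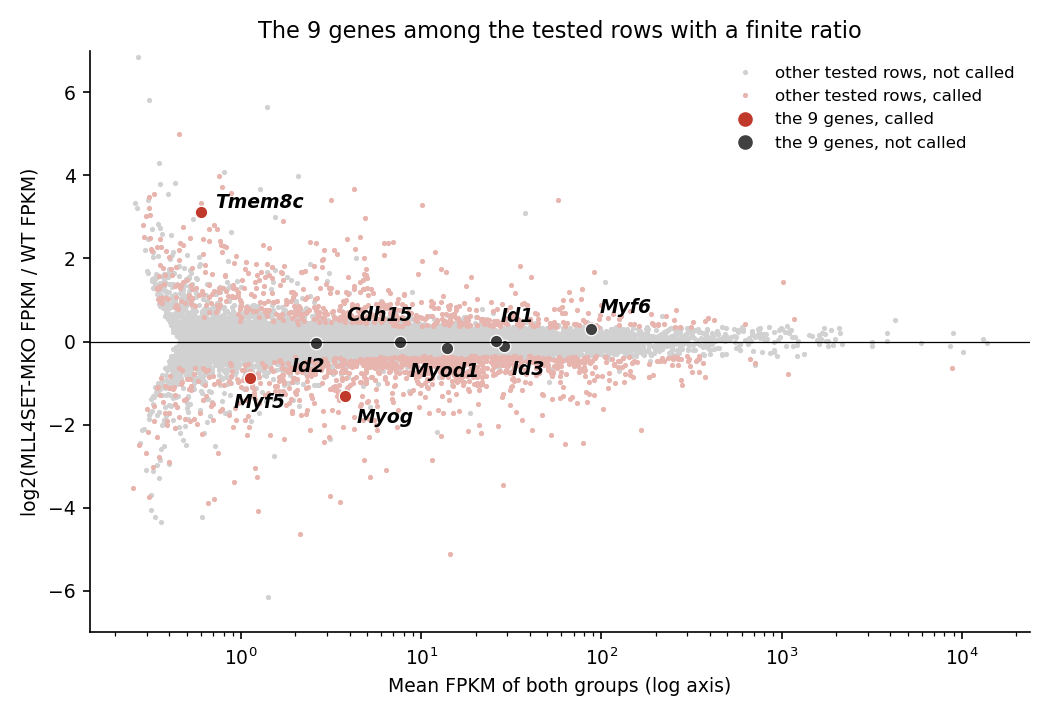
log2 ratio of MLL4SET-MKO to WT against the mean FPKM of both groups (log axis) for the tested rows with a finite ratio, with the 9 genes as large points. The spread of ratios widens below 1 FPKM, where Tmem8c lies at 3.12, and the Id genes, Cdh15 and Myod1 lie within the dense band around 0.

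Genes that act with, before or after these 9 were described from lists chosen with earlier results of these data known. Listed genes that were tested and averaged at least 1 FPKM over both groups are referred to as measured. The share of calls over all such rows was 12.0%, made up of 4.03% higher and 7.93% lower in MLL4SET-MKO, and their median log2 change was -0.03. List changes are log2((MLL4SET-MKO FPKM + 1)/(WT FPKM + 1)), which understates the change of low genes.

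Of 22 measured E proteins and myogenic cofactors, 4 were called lower and 1 higher, with a median change of -0.09. The E proteins Tcf3, Tcf4 and Tcf12, the dimer partners of the myogenic factors and the proteins that Id proteins hold, were not called. Their levels were 4.98, 13.1 and 9.45 FPKM in MLL4SET-MKO and 5.06, 12.0 and 10.5 FPKM in WT. Pitx3, a homeobox factor of developing muscle, fell to 1.51 FPKM in MLL4SET-MKO, against 3.22 FPKM in WT, at a locus that another row shares. Vgll2, a muscle cofactor of TEAD proteins, fell to 34.3 FPKM in MLL4SET-MKO, against 48.1 FPKM in WT. The MEF2 factors, which work with myogenic factors on muscle genes, included a called gene in each direction. Mef2c rose to 231.6 FPKM in MLL4SET-MKO, against 147 FPKM in WT, and Mef2d, whose locus is shared with another row, fell to 45.1 FPKM, against 74.8 FPKM in WT.

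On the list of helix-loop-helix repressors and other inhibitors of the myogenic factors, 12 genes were measured. Of these, 1 was called lower and none higher, with a median change of -0.10. The list is broader than its name, as it also holds Tcf15 and Hes6, which are not classed as such inhibitors. The called gene was Bhlhe40, a repressor tied to the circadian clock, with 26.1 FPKM in MLL4SET-MKO and 39.2 FPKM in WT, at a locus that another row shares. Tcf15 and Bhlhe41, the other genes of highest level on this list, had 14.2 and 16.9 FPKM in MLL4SET-MKO and 18.5 and 13.7 FPKM in WT, and neither was called. Id4, the remaining Id gene, was the lowest of the family, with 1.38 FPKM in MLL4SET-MKO and 0.767 FPKM in WT. Its locus is shared with another row, and it did not pass (q = 0.057 in the authors' deposited table). It is named here after its values were seen.

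BMP signalling, which is known to control the Id genes, was followed in a pair of lists. Of 17 measured genes on the list of BMP ligands and receptors, 2 were called higher and 2 lower, with a median change of -0.01. All 4 called genes encode receptors. The list is broader than BMP signalling, as it also holds Bmp1, which is not a ligand, and Mstn, Gdf11 and Acvr1b. The type I receptor genes Bmpr1a and Acvr1 fell to 20.3 and 6.66 FPKM in MLL4SET-MKO, against 28.4 and 9.69 FPKM in WT. Bmpr1b, also a type I receptor gene, rose to 3.01 FPKM in MLL4SET-MKO, against 2.08 FPKM in WT. Acvr2a, a type II receptor gene whose locus is shared with another row, rose to 17.1 FPKM in MLL4SET-MKO, against 11.6 FPKM in WT.

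Of 19 measured SMADs, BMP inhibitors and BMP target genes, 3 were called lower and 1 higher, with a median change of -0.18. Smad3, which carries signals of TGF-beta, activin and myostatin, fell to 20.4 FPKM in MLL4SET-MKO, against 43.0 FPKM in WT, a log2 ratio of -1.08 (95% interval -1.33 to -0.83). Smad2, which acts beside Smad3, fell to 2.48 FPKM in MLL4SET-MKO, against 3.33 FPKM in WT. The BMP antagonist gene Nog fell to 1.38 FPKM in MLL4SET-MKO, against 2.55 FPKM in WT, and Fst, the gene of the activin and myostatin antagonist follistatin, rose to 4.05 FPKM, against 2.42 FPKM in WT. Of the SMADs that carry BMP signals, Smad1 had 4.57 FPKM in MLL4SET-MKO and 4.60 FPKM in WT and Smad5 8.92 and 11 FPKM in the same order, neither of them called.

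Of 27 measured genes of myoblast fusion and adhesion, 5 were called lower and 1 higher, with a median change of -0.10. The highest ratio was that of Stab2, the gene of a scavenger receptor that binds phosphatidylserine during fusion and is also known from sinusoidal endothelium, with 7.27 FPKM in MLL4SET-MKO and 2.37 FPKM in WT. Its log2 ratio was 1.62 (95% interval 1.31 to 1.93). Cdh4, another cadherin gene, fell to 2.45 FPKM in MLL4SET-MKO, against 5.31 FPKM in WT. Arhgap26, whose product GRAF1 promotes fusion, fell to 1.10 FPKM in MLL4SET-MKO, against 2.14 FPKM in WT. Itga7, the laminin-binding integrin gene of muscle, fell to 15.9 FPKM in MLL4SET-MKO, against 24.2 FPKM in WT, at a shared locus. Gm7325 and 3 other tested genes of this list were under 1 FPKM on average and were not counted.

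On the list of genes downstream of myogenin and MyoD in adult or denervated muscle, 21 were measured. Of these, 5 were called higher and 4 lower, with a median change of -0.09. The list is broader than its name, as it also holds Hdac4, Hdac5 and Hdac9, regulators of Myog, none of them called. Mybph, a myosin-binding protein gene at a locus that it shares with Adora1, fell to 50.2 FPKM in MLL4SET-MKO, against 119.5 FPKM in WT. Trim63, also called lower, had 97.1 FPKM in MLL4SET-MKO and 148.7 FPKM in WT. Dok7 and Lrp4, called lower as well, had 5.13 and 1.80 FPKM in MLL4SET-MKO and 9.22 and 2.67 FPKM in WT. Cdkn1c, called higher, had 25.6 FPKM in MLL4SET-MKO and 18.1 FPKM in WT. Myl4, an embryonic and atrial myosin light chain gene at a shared locus, rose to 14.4 FPKM in MLL4SET-MKO, against 4.65 FPKM in WT. Gadd45a, a growth arrest gene raised by denervation, and Igf2, a growth factor gene, both at shared loci, rose to 22.7 and 17.0 FPKM in MLL4SET-MKO, against 11.9 and 8.83 FPKM in WT. Of the acetylcholine receptor genes, well-known targets of myogenic factors, Chrnb1 rose to 19.0 FPKM in MLL4SET-MKO, against 14.1 FPKM in WT, while Chrna1 and Chrne had 4.32 and 7.55 FPKM in MLL4SET-MKO and 4.0 and 8.39 FPKM in WT and were not called.

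**Figure D4:**
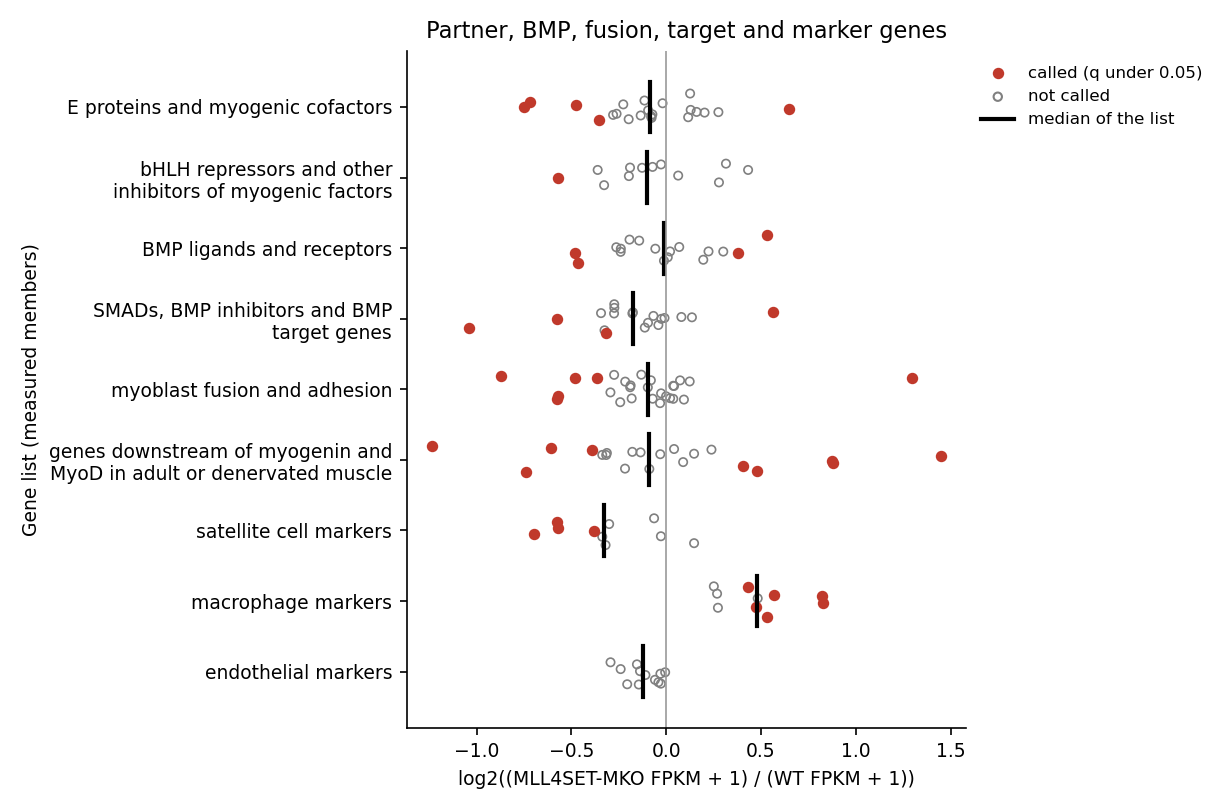
log2((MLL4SET-MKO FPKM + 1)/(WT FPKM + 1)) of each measured gene in 9 lists, filled where q was under 0.05, with a bar at the median of each list. Called genes lie on both sides of 0 in most pathway lists, while the called satellite cell markers lie below 0 and the called macrophage markers above it.

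Myf5, Myod1 and Cdh15 are expressed by muscle stem cells (satellite cells), so markers of these and other cells are given beside them. Of 10 measured satellite cell markers, 4 were called lower and none higher, with a median change of -0.33, and the list summed to 917.3 FPKM in MLL4SET-MKO and 1161 FPKM in WT, most of it from the row shared by Des and Speg. Among those called, the hepatocyte growth factor receptor gene Met fell to 2.34 FPKM in MLL4SET-MKO, against 4.40 FPKM in WT, and Sdc4 to 15.1 FPKM, against 23.0 FPKM in WT. Pax7, the defining transcription factor of these cells, was under 1 FPKM, with 0.415 FPKM in MLL4SET-MKO and 0.597 FPKM in WT, and was not called (q = 0.18 in the authors' deposited table). Several of the list's genes, such as Itga7, Sdc4 and Des, are also expressed by fibres or other cells. The part of satellite cell numbers in the lower Myf5 was not tested. The cells behind the whole-muscle levels of Myod1 and Cdh15 were not tested either.

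Of 10 measured macrophage markers, 6 were called higher and none lower, and all 10 had higher values in MLL4SET-MKO. Their summed level was 167.2 FPKM in MLL4SET-MKO and 104.2 FPKM in WT. Lyz2 rose to 77.3 FPKM in MLL4SET-MKO, against 43.2 FPKM in WT, and Ctss to 9.58 FPKM, against 4.99 FPKM in WT. With the authors' statistic taken directly as a normal deviate, 1 measured macrophage marker (Lyz2) and 1 measured satellite cell marker (Met) passed. The part of macrophages in the higher Tmem8c or Stab2 was not tested. None was called among 12 endothelial, 10 fibroblast, 8 Schwann cell and 7 smooth muscle and pericyte markers, with median changes of -0.12, 0.08, 0.05 and -0.14. Values were lower in MLL4SET-MKO for all 12 endothelial and all 7 smooth muscle and pericyte markers. They were higher for 8 of the 10 fibroblast and 5 of the 8 Schwann cell markers. Endothelial markers, which bear on Id1 and Id3 because these genes are strongly expressed in vessels, summed to 197.1 FPKM in MLL4SET-MKO and 216.6 FPKM in WT. Of 12 proliferation markers, 2 reached the level for measurement, Pcna with 19.8 FPKM in MLL4SET-MKO and 18.7 FPKM in WT and Mcm2 with 3.55 and 2.73 FPKM in the same order, and neither was called. Of 9 measured markers of the nuclei under the nerve ending, 1 was called higher (Chrnb1) and 1 lower (Etv5, with 4.43 FPKM in MLL4SET-MKO and 5.93 FPKM in WT), and the median change was -0.18.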

How the data were processed

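Total RNA of frozen muscle was made into libraries with a NEBNext Ultra RNA kit, per the labels' protocols. TopHat2 2.0.14 and Cufflinks 2.2.1 and the build mm10 (GRCm38) are named in the submitters' processing notes. The sources used here do not give the annotation or whether strand was used. The table used here, deposited by the authors in the Cuffdiff layout, holds an FPKM per group, a test statistic (a score), a p-value and a q-value, per the file headers. A further FPKM file that the labels name was not analysed here, no values of single libraries were used, and read depth is unknown. The q-values matched a Benjamini-Hochberg adjustment of the p-values over 13347 tested rows within 0.0001. The smallest p-value, 5e-05, was shared by 739 rows.

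Standard errors of the log2 ratios were worked back as the wider of 2 estimates, from the p-value itself (where above the smallest) and from the test statistic times 1.73, the median ratio of the normal deviate of p to the statistic over 11625 rows. They rest on the authors' model and not on single mice. For all 9 genes the rows were tested and no row shares their locus. Coordinates are those of the authors' table with starts counted from 1. Calculations used Python 3.11.15, pandas 2.3.3 and scipy 1.17.1, and were tested on simulated data.

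The 9 genes, the lists and the tests were chosen with earlier results of these data known. Besides the 9 genes and Kmt2d, up to 4 called genes with the largest change were named per pathway list (where fewer than 2 were called, also the 2 of highest mean FPKM) and up to 3 called markers, or else the 2 of highest level, per cell type list. All further genes were chosen with their values in view. Alternatives were other pseudocounts, centring, other minimums, a q threshold of 0.01 and the authors' statistic taken directly as a normal deviate.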

Additional observations from a re-analysis of the deposited data

How the results depend on the processing

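Without a pseudocount the log2 values of Myog, Myf5 and Tmem8c were -1.30, -0.89 and 3.12, and with a pseudocount of 1 FPKM they were -1.0, -0.46 and 0.88. With the authors' statistic taken directly as a normal deviate, which called 415 rows in place of 1581, 1 of the 9 genes passed (Myog) in place of 3, and Myf5 (-0.46) and Tmem8c (0.88) did not, nor did Kmt2d (q = 0.13). A q threshold of 0.01 likewise left 1. With q over rows of mean FPKM at least 1, Myog and Myf5 passed and Tmem8c, with a mean of 0.595 FPKM, had no value. No other gene of the 9 gained or lost a call, and after centring on the median change of -0.03 the value of Id2, not called, turned to 0.0091, against -0.021 before. On the normal deviate reading, calls fell to 0 of 5 for E proteins and cofactors, 0 of 1 for repressors, 0 of 4 for BMP ligands and receptors, 1 of 4 for SMADs, inhibitors and targets, 2 of 6 for fusion and adhesion, and 4 of 9 for genes downstream of myogenin and MyoD. For the cell type lists, where this reading was added after seeing the data, they fell to 1 of 4 for satellite cells, 1 of 6 for macrophages, 0 of 2 for nuclei under the nerve ending and 0 of 1 for fibres. With a minimum mean of 5 FPKM, 1 call was left among SMADs, inhibitors and targets and 2 in fusion and adhesion. Without rows that hold several symbols or share a locus, 3 calls were left for E proteins and cofactors, 0 for repressors and 5 for genes downstream. No paired analysis was possible because the table used here holds 1 value per group, and for the same reason no replicate could be left out. FPKM carries no counts, so the depth behind the genes under 1 FPKM is unknown.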

Other observations

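Of 21 tested genes of these lists under 1 FPKM on average, which were not counted above, 3 were called (14.3%, against 11.2% of all tested rows under 1 FPKM). The 3 were lower in MLL4SET-MKO and are named after their values were seen. Fgfr4, a fibroblast growth factor receptor gene of satellite cells, fell to 0.200 FPKM in MLL4SET-MKO, against 1.29 FPKM in WT. Its log2 ratio was -2.69 (95% interval -3.41 to -1.97). Of the 3, Fgfr4 alone passed with the authors' statistic taken directly as a normal deviate (q = 0.0016). Calcr, the calcitonin receptor gene of quiescent satellite cells, fell to 0.0401 FPKM in MLL4SET-MKO, against 0.463 FPKM in WT, at a locus that other rows share. Chrdl2, a BMP antagonist gene, fell to 0.231 FPKM in MLL4SET-MKO, against 0.910 FPKM in WT. Cdh15, described above as expressed by satellite cells, had a log2 ratio of 0.00. The cells that its level came from were not tested.

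Within 100 kb of the 9 genes, other than these genes themselves, lay 32 rows, of which 22 were tested and 3 were called (13.6%, against 11.8% of all tested rows). Mybph, the called row near Myog, was lower in MLL4SET-MKO, as Myog was. The locus that Mybph shares with Adora1 lies 54546 bases from Myog, and the distance of the Mybph gene itself was not measured. Kcnc1, a potassium channel gene 17372 bases from Myod1, fell to 15.0 FPKM in MLL4SET-MKO, against 25.1 FPKM in WT, while Myod1 was not called. E2f2, a cell cycle factor gene 26881 bases from Id3, rose to 1.51 FPKM in MLL4SET-MKO, against 0.996 FPKM in WT (q = 0.044 in the authors' deposited table).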
